A study of Mus musculus with 47 samples.

Results

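Myc, Mycn, Max, Mxi1 and Mxd4 are genes of the MAX network, and they were taken as every probe set whose platform symbol is one of these 5 names, on all 47 arrays of the series. The rule found 11 probe sets among 20380 that carry 1 gene symbol: 1 for Myc, 3 for Mycn, 1 for Max, 2 for Mxi1 and 4 for Mxd4, which are 5 genes of 12393. Where a gene has several, they are called A, B and so on, with the array's own identifiers in the plots of Mycn by background and of the antagonists against Myc. RNA from mouse T-cell lymphoblastic tumours was hybridised to Affymetrix arrays, 1 array a tumour. The largest set is the 9 tumours from Cdkn2a knockout mice put through retroviral insertional mutagenesis, followed by 6 TLX1 transgenic tumours. Knockouts of p53 gave 3 tumours, of E2A 2, and of rag with E2A 2. Single transgenes gave 3 tumours each for ThPOK, LMO1, beta-catenin and Nup98HoxD13, and 2 each for Pokemon and Tal1. The double transgenics Tal1-LMO2 and olig1-LMO1, and the Ikaros Plastic mutants, gave 3 each. The genotype label is TLX1 positive for the 6 TLX1 transgenic tumours and TLX1 negative for the other 41, so TLX1 status and that background cannot be told apart. The labels give no ages, no promoters for the transgenes and no healthy tissue, and they do not say whether tumours come from separate mice, so p-values measure only the spread between these tumours.

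MYC and MYCN are basic helix-loop-helix leucine zipper proteins that bind DNA only as partners of MAX, at E-box sequences whose canonical form is CACGTG, and raise the transcription of genes for ribosome production and growth. The MXD proteins, among them MXI1 (also called MXD2) and MXD4, compete for MAX and bring SIN3 corepressors to the same sites, and MNT does so more widely. In immature T cells, NOTCH1 is a known direct activator of Myc, and Myc and Mycn are known insertion targets of leukaemia viruses in mouse T-cell lymphomas. The RefSeq promoter windows of assembly GRCm38.p6 reach from 250 bases before to 50 bases after a listed start. They hold 4 of the 5 genes, all but Myc, in 6 windows. The windows of Max and Mxd4 are shown because each holds the letters CACGTG, in capitals, which read the same on both strands.
Max: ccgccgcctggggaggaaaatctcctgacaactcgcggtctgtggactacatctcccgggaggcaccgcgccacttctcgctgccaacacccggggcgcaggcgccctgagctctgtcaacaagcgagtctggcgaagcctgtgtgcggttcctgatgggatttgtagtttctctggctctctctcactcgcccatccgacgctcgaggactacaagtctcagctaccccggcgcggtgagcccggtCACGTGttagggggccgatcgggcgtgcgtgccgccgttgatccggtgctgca
Mxd4: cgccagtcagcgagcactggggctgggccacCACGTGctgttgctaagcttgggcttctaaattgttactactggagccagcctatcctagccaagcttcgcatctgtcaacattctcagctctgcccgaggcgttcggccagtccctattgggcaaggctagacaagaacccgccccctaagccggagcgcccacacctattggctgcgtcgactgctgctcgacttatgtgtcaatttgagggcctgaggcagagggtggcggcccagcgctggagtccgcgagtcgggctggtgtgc
The Max window is chr12:76962199-76962498 on the minus strand, with the E-box letters starting at position -3 from the listed start. The Mxd4 window is chr5:34187661-34187960 on the minus strand, with the letters at position -219. No CACGTG was found in the 3 windows of Mxi1 or in that of Mycn. Of all 32851 windows, 2349 (7.15%) hold these letters, and such a match is a description of the sequence and not of binding.

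A signal here is the deposited MAS5 value in arbitrary units, and a probe set is called dim where it lies below the median of its array, which ran from 49.6 to 106. Log2 values are log2(signal + 15.9), and changes are log2 differences ± SE from limma, with Benjamini-Hochberg adjustment over 8810 tested genes. Calls are those with an adjusted p under 0.05. Some facts about the libraries touch several results. The 3'/5' signal ratio of the Gapdh and Actb control probe sets, which is known to rise when RNA is degraded or copied short, had a mean log2 value above 0.5 in 8 tumours. These were TLX1 transgenic 1, 2, 3, 5 and 6, p53 knockout 1 and 2, and Tal1 transgenic 1, with a highest value of 2.79. The tumour p53 knockout 2 stood apart from its label of T-cell lymphoblasts. Its 5 measured T cell marker genes summed to 1462, against 5486 to 29817 in the other 46 tumours. Its 5 endothelial markers summed to 11692, against 114 to 669. The labels of 2 groups went against Lmo1, whose signal was 586 to 2526 in the 3 tumours labelled Nup98HoxD13 transgenic and 522 to 2344 in the LMO1 transgenic tumours, but 11.1 to 34.3 in those labelled olig1-LMO1 double transgenic. Both groups are therefore named below by label only.

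Myc was above the array median in all 47 tumours and differed among the 14 backgrounds, with the highest level in Cdkn2a knockout tumours and the lowest in TLX1 transgenic tumours. Cdkn2a encodes cell cycle inhibitors, one of which acts upstream of p53, and in these mice a retrovirus was used to mark and activate genes by insertion. Insertion sites are not analysed here. Myc signal in the 9 Cdkn2a knockout tumours had a lowest value of 1546, a median of 2256 and a highest value of 3116, against 185, 1018 and 1866 in the other 38 tumours. Of the 9, 7 lay above every other tumour of the series, and only 3 of the other 38 tumours exceeded the lowest of the 9. The log2 difference from the mean of the other 13 backgrounds was 1.24 ± 0.19 (limma, adjusted p = 5.72e-06), where 30.7% of all genes were called. It was 1.04 ± 0.16 with the 3'/5' ratio included as covariate (adjusted p = 1.2e-05; 28.9% of genes called). It was 1.18 to 1.31 when each tumour of the series was left out in turn.

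Beta-catenin transgenic tumours came second, with Myc signals of 1866, 1703 and 1220. Their log2 difference of 0.71 ± 0.30 missed the threshold (limma, adjusted p = 0.0961; 18.8% of genes called). Their upper 2 values lie among those of the lowest Cdkn2a knockout tumours. The next 7 backgrounds in order were LMO1 transgenic (1266, 1343 and 1262), Pokemon transgenic (1411 and 1174), E2A knockout (1415 and 1107), the label olig1-LMO1 (1353, 1166 and 897), the label Nup98HoxD13 (639, 1404 and 1538), Ikaros Plastic (1242, 599 and 1756) and Tal1-LMO2 (1345, 1195 and 756). Each of these means lay at most 0.27 log2 units above the next in order, against a pooled SD within backgrounds of 0.52, and neighbouring groups overlapped. The rag E2A knockout tumours had 1152 and 675, the ThPOK transgenic tumours 748, 681 and 728, and the Tal1 transgenic tumours 657 and 627.8. The lowest ThPOK tumour lay above both Tal1 tumours. None of these 10 backgrounds was called against the mean of the rest. The share of genes called ran from 0.658% in the label olig1-LMO1 to 22.8% in Ikaros Plastic tumours. It was 1.56% in rag E2A knockout, 4.96% in Tal1 transgenic and 11.8% in ThPOK transgenic tumours.

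Myc was lowest in p53 knockout and TLX1 transgenic tumours. It had signals of 316, 483 and 830 in p53 knockout tumours, a log2 difference of -1.03 ± 0.30 (limma, adjusted p = 0.0128; 21.7% of genes called). This call was lost without p53 knockout 1 (-0.71, adjusted p = 0.146) and without p53 knockout 2, the tumour with few T cell markers, where the difference was about as large (-1.0 ± 0.37, adjusted p = 0.0902). In TLX1 transgenic tumours 1 to 6, Myc had 647, 213, 930, 452, 185 and 364. The mean log2 3'/5' ratios of the same tumours were 0.52, 2.79, 0.90, 0.37, 2.55 and 1.94, so the 3 with the highest ratios had the 3 lowest Myc signals. Set against the 41 TLX1 negative tumours, which ran from 316 to 3116, the log2 difference was -1.54 ± 0.31 (limma, adjusted p = 0.00042; 21.4% of genes called, 8.86% lower). It was -0.03 ± 0.40 with the 3'/5' ratio included as covariate (adjusted p = 0.995; 0.0681% of genes called), -1.41 with background as a random block (adjusted p = 0.224) and -0.86 without TLX1 transgenic tumours 2, 5 and 6 (adjusted p = 0.266). In bulk tumours, fewer cells with a transcript and less of it per cell cannot be told apart.

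**Figure D1:**
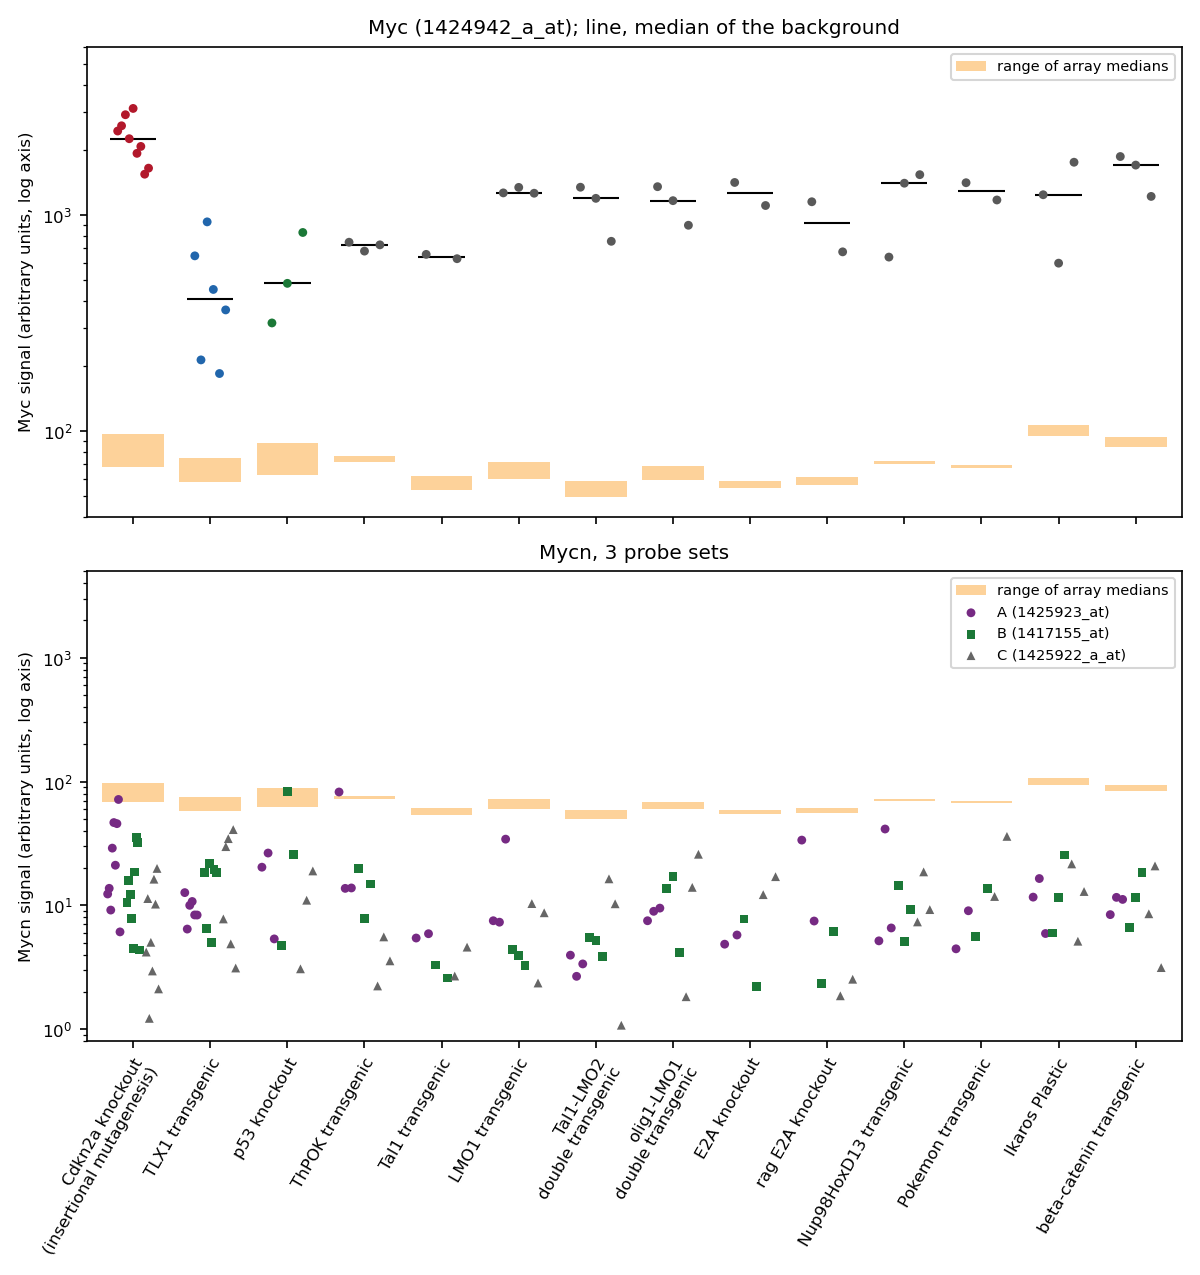
Signal of Myc (upper panel, 1 probe set) and Mycn (lower panel, 3 probe sets, by marker shape) in every tumour, in arbitrary units on log axes, by background; horizontal lines are the median of each background for Myc, colours in the upper panel mark the 3 backgrounds called for Myc, and the shaded band spans the lowest to the highest array median of the background. Cdkn2a knockout tumours have Myc signals of 1546 to 3116, and a Mycn point lies above its own array's median in 1 tumour, ThPOK transgenic 1.

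In none of the 6 tumours of lowest Myc was Mycn above its array median. The 3 Mycn probe sets had medians of 9.15 (probe set A), 7.83 (B) and 8.70 (C) over the 47 tumours, all under the lowest array median. In 1 tumour, 1 of the 3 lay above the median of its array: probe set A had 82.3 in ThPOK transgenic 1, 1.12 times that median, where the other 2 ThPOK tumours had 13.7 and 13.8. Myc in that tumour was 748, against 681 and 728 in the other 2 ThPOK tumours. Those 6 tumours of lowest Myc were TLX1 transgenic 5, 2, 6 and 4 and p53 knockout 1 and 2. All but TLX1 transgenic 4 had a mean log2 3'/5' ratio above 0.5, at 0.65 to 2.79. In each of the 6, 0 of the 3 Mycn probe sets lay above the array median. The nearest to it was probe set B in p53 knockout 2, with 82.7 against an array median of 88.2. Leaving that tumour out, the p53 knockout difference of this probe set was 0.26 ± 0.27 (limma on all probe sets with no filter, adjusted p = 0.669), against 0.84 ± 0.26 with it (adjusted p = 0.0221).

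Since no Mycn probe set passed the filter on dim probes, Mycn was tested only without that filter. The slope of Mycn (probe set A) on Myc within backgrounds was then -0.01 ± 0.17 log2 units per log2 unit of Myc (limma, adjusted p = 0.990), with a 95% interval of -0.36 to 0.35, where 0.395% of genes were called. Its difference among backgrounds missed the threshold (adjusted p = 0.135; 60.6% of genes called), as did that between TLX1 positive and negative tumours. In Cdkn2a knockout tumours, Mycn probe set A ran from 6.10 to 71.6 with a median of 21.1, against 2.67 to 82.3 and a median of 8.38 in the other 38 tumours. This was a difference of 0.57 ± 0.19 at the probe set level (limma with no filter, adjusted p = 0.0228), with 0 of the 9 tumours above the array median. The other 2 Mycn probe sets were not called there. Mycl, another MYC family gene, likewise had 0 of 47 arrays above the median for each of its 3 probe sets, with a highest signal of 53.7.

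Max, the shared partner of all these proteins, differed among backgrounds in another order than Myc. It was above the array median in 33 of 47 tumours and passed the test among backgrounds (limma F test, adjusted p = 2.16e-07), as did Myc (adjusted p = 1.94e-06) and Mxd4 (adjusted p = 0.00555), while Mxi1 did not pass (adjusted p = 0.359). Of all genes, 68.1% were called in this test. The highest levels were in Ikaros Plastic tumours (265, 268 and 518), beta-catenin transgenic tumours (343, 262 and 268), Tal1-LMO2 tumours (286, 236 and 263) and E2A knockout tumours (240.5 and 282). Max rose by 1.40 ± 0.28 in Ikaros Plastic (limma, adjusted p = 0.00074; 22.8% of genes called), 1.19 ± 0.28 in beta-catenin transgenic (adjusted p = 0.00285) and 1.04 ± 0.28 in Tal1-LMO2 tumours (adjusted p = 0.0194; 6.67% of genes called). The E2A knockout difference of 1.03 ± 0.34 missed the threshold (adjusted p = 0.0737; 4.34% of genes called) and passed it with the 3'/5' covariate (0.99, limma, adjusted p = 0.0456). The ranges of these 4 backgrounds overlap.

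The 5 lowest backgrounds for Max were the label Nup98HoxD13 (30.7, 39.1 and 54.4), LMO1 transgenic (38.7, 49.7 and 42.1), Pokemon transgenic (48.6 and 66.0), ThPOK transgenic (62.9, 50.4 and 64.4) and the label olig1-LMO1 (58.7, 84.6 and 51.1). In these 14 tumours Max lay above the array median in 1, against 32 of the 33 tumours of the other 9 backgrounds. The latter ran from 66.8 in p53 knockout 2 to 518. The backgrounds were parted here by Max itself, so these counts describe the order and are no test. Max fell by 1.43 in the label Nup98HoxD13 (limma, SE 0.28, adjusted p = 0.00204; 3.01% of genes called), by 1.36 in LMO1 transgenic (SE 0.28, adjusted p = 0.0119; 1.03% of genes called) and by 1.00 in ThPOK transgenic tumours (SE 0.28, adjusted p = 0.0184; 11.8% of genes called). The differences in the label olig1-LMO1 (-0.90 ± 0.28, adjusted p = 0.138; 0.658% of genes called) and in Pokemon transgenic tumours (-1.04 ± 0.34, adjusted p = 0.150; 0.953% of genes called) missed it. Both passed with the 3'/5' ratio included as covariate (limma, adjusted p = 0.0436 and 0.0476). The 3'/5' ratio of these 14 tumours was low, with a highest mean log2 value of 0.40. Each of the calls in ThPOK, LMO1 and Tal1-LMO2 tumours was lost when any of its own 3 tumours was left out, with adjusted p up to 0.122. Over the omission of each tumour of the series in turn, these differences stayed at -1.05 to -0.91 in ThPOK, -1.43 to -1.30 in LMO1 and 0.97 to 1.10 in Tal1-LMO2 tumours. The calls in Nup98HoxD13, Ikaros Plastic and beta-catenin tumours were kept.

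The order of backgrounds was not that of Myc. LMO1 transgenic tumours had rank 3 of 14 for Myc and rank 13 for Max. Cdkn2a knockout tumours, at rank 1 for Myc, had rank 5 for Max, with signals of 91.1 to 273 and a median of 182, a difference of 0.34 ± 0.18 (limma, adjusted p = 0.134). In TLX1 positive tumours Max ran from 101 to 341 with a median of 147, against 30.7 to 518 with a median of 130 in TLX1 negative tumours, a difference of 0.29 ± 0.39 (limma, adjusted p = 0.633). Against the mean of the other 13 backgrounds, the TLX1 transgenic difference was 0.33 ± 0.21 (adjusted p = 0.223), and it passed with the 3'/5' covariate, at 1.14 ± 0.30 (adjusted p = 0.0265). Within backgrounds, the slope of Max on Myc was 0.35 ± 0.15 (limma, adjusted p = 0.217), with a 95% interval of 0.05 to 0.65 before adjustment, and 1.14% of genes were called on this slope.

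**Figure D2:**
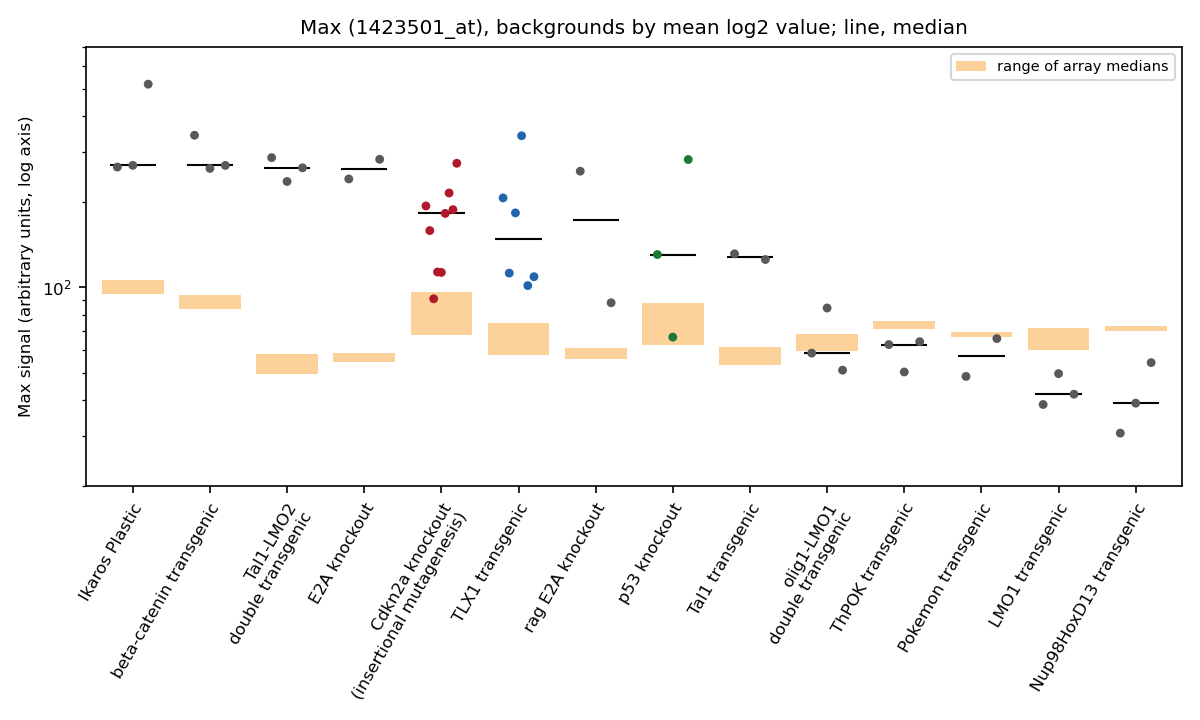
Max signal in every tumour, in arbitrary units on a log axis, with backgrounds in the order of their mean log2 value; lines are medians, and the shaded band spans the array medians of each background. The 14 tumours of the 5 backgrounds on the right lie between 30.7 and 84.6, and all but 1 of the 33 other tumours lie above their array median.

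Mxi1, an antagonist that competes for MAX, gave different answers from its 2 probe sets. The probe set used for the gene, A, was above the array median in all 47 tumours, with signals of 156 to 809 and a median of 362. By this probe set Mxi1 was 297 to 809 with a median of 378 in TLX1 positive tumours, against 156 to 599 with a median of 359 in TLX1 negative tumours (log2 difference 0.28 ± 0.19, limma, adjusted p = 0.290). In Cdkn2a knockout tumours it was 221 to 470 with a median of 385, against 156 to 809 with a median of 362 in the other 38 (0.03 ± 0.16, adjusted p = 0.921). Its 14 backgrounds overlapped from neighbour to neighbour throughout, from a highest mean in Pokemon transgenic tumours (500.3 and 564) to a lowest in Tal1 transgenic tumours (188 and 339).

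The other Mxi1 probe set, B, was above the array median in 32 tumours and in 0 of the 6 TLX1 positive ones. It ran from 9.02 to 67.4 with a median of 37.5 in TLX1 positive tumours, against 18.4 to 186 with a median of 111 in TLX1 negative tumours. The log2 difference was -1.26 ± 0.26 (limma over 14048 probe sets, adjusted p = 0.000257; 28.2% of probe sets called), and 0.28 ± 0.29 with the 3'/5' ratio included as covariate (adjusted p = 0.855; 0.0569% of probe sets called). The 2 probe sets therefore had opposite signs without the covariate, and the same sign with it.

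Mxd4, another antagonist of the MXD family, rose in TLX1 positive tumours by 1 of its 3 tested probe sets. By probe set A it ran from 518 to 1126 with a median of 788 in TLX1 positive tumours, against 175 to 1070 with a median of 392 in TLX1 negative tumours. Of those 41, 10 exceeded the lowest of the 6. The log2 difference was 0.90 ± 0.26 (limma, adjusted p = 0.0105; 12.6% of genes called higher), 0.23 ± 0.39 with the 3'/5' ratio included as covariate (adjusted p = 0.934), 0.84 with background as a random block (adjusted p = 0.476) and 0.71 without TLX1 transgenic tumours 2, 5 and 6, no longer called. By probe set B it was 230 to 458 with a median of 357 in TLX1 positive tumours, against 101 to 860.1 with a median of 337, a difference of 0.14 ± 0.27 (limma over probe sets, adjusted p = 0.730). For C the difference was 0.30 ± 0.26 (adjusted p = 0.415), and D passed the array median in 1 tumour and was not tested. Some markers of other cells rose in TLX1 positive tumours, by 1.47 to 2.58, where 12.6% of all genes were called higher. They were 3 of 8 myeloid genes (Camp, S100a9 and Ngp), 1 of 4 B cell genes (Ighm) and 1 of 5 endothelial genes (Tie1). None of these passed with the 3'/5' covariate, where 0.0681% of all genes were called. The summed myeloid signal was 3076 to 52528 in TLX1 positive tumours, against 953 to 9238 in TLX1 negative tumours. Its medians were close, at 4467 and 4299, and the 52528 was that of TLX1 transgenic 2. The summed B cell signal was 2153 to 12835 (median 5027), against 98.4 to 6890 (median 1796). The summed endothelial signal was 270.3 to 669 (median 463), against 114 to 11692 (median 398). The summed stromal signal was 1429 to 8714 (median 6663), against 153 to 17350 (median 2804). Its 5 genes differed by 0.83 to 1.22 and were not called in this contrast. Col1a1, Col3a1, Sparc and Dcn were called against the mean of the other 13 backgrounds, where 31.5% of genes were called. The part of such other cells in the TLX1 differences of Myc, Mxd4 and the other genes was not tested.

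At the other end, Mxd4 (A) was lowest in Ikaros Plastic tumours, with 175, 190 and 339, a log2 difference of -1.03 ± 0.31 (limma, adjusted p = 0.0166). It was -0.97 with the 3'/5' covariate (adjusted p = 0.0261) and lost its call without Ikaros Plastic 1 or 2, with -1.31 to -0.86 over the omission of each tumour in turn. In Cdkn2a knockout tumours it was 208 to 459 with a median of 314, against 175 to 1126 with a median of 466 in the other 38, and the groups overlapped widely. That difference of -0.54 ± 0.19 (limma, adjusted p = 0.031) was lost with the covariate (-0.49, adjusted p = 0.0697), and without Cdkn2a knockout 2, 7 or 8 (adjusted p up to 0.073). It was -0.61 to -0.47 over the omission of each tumour in turn. By probe set B the Cdkn2a knockout tumours had a median of 339, as did the other 38. The lowest B signal, 101, was in ThPOK transgenic 2 and not in an Ikaros Plastic tumour. In ThPOK transgenic tumours Mxd4 probe set C had 9.13, 18.7 and 5.07, all under the array medians, a difference of -1.23 ± 0.28 (limma over probe sets, adjusted p = 0.00337).

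**Figure D3:**
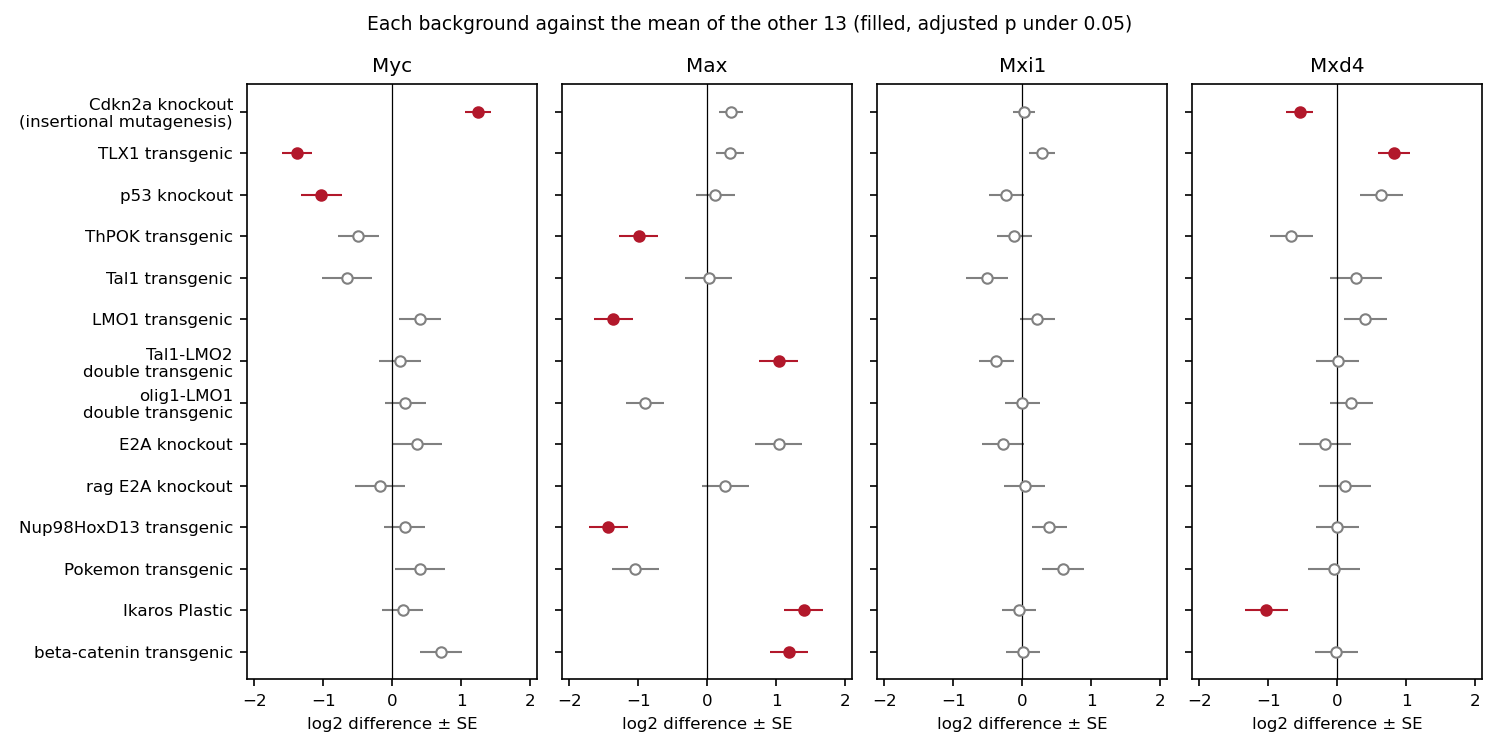
Log2 difference ± SE of each background from the mean of the other 13, for Myc, Max, Mxi1 (probe set A) and Mxd4 (probe set A); filled points passed an adjusted p under 0.05. Of 56 differences 12 are filled: 3 for Myc, 6 for Max, 0 for Mxi1 and 3 for Mxd4; over the 14 contrasts 0.658% to 31.5% of all genes were called.

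No inverse relation of the antagonists to Myc was detected within backgrounds. With background means taken out, the slope on Myc was 0.01 ± 0.18 for Mxd4 (limma, adjusted p = 0.990; 95% interval -0.35 to 0.36), and 0.12 ± 0.14 for Mxi1 (adjusted p = 0.706; 95% interval -0.17 to 0.40), in log2 units per log2 unit of Myc. Slopes of the other Mxd4 probe sets were 0.15 ± 0.19 for B and 0.04 ± 0.16 for C, and that of Mxi1 B was 0.38 ± 0.17 (limma, adjusted p = 0.197 over probe sets, of which 1.95% were called). An inverse slope down to the lower bounds of these intervals lies within the error.

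Across all tumours with no background terms, Mxd4 (A) did have a slope of -0.33 ± 0.10 on Myc (limma, adjusted p = 0.00848), where 31.2% of genes were called. This is the only inverse relation that passed among the 5 antagonist probe sets tested. With the 3'/5' covariate the same slope was -0.08 ± 0.14 (adjusted p = 0.782; 8.5% of genes called). The other Mxd4 probe set B had 0.04 ± 0.10 without the covariate (limma over probe sets, adjusted p = 0.797; 37.9% of probe sets called). Mxi1 B had 0.55 ± 0.09 (limma, adjusted p = 2.42e-06), in the direction of Myc, and 0.11 ± 0.10 with the covariate (adjusted p = 0.518; 10.4% of probe sets called). TLX1 transgenic 2, 5 and 6, the 3 tumours of highest 3'/5' ratio, had Mxd4 A signals of 911, 673 and 1126 and Mxi1 B signals of 12.6, 9.02 and 29.2, beside Myc signals of 213, 185 and 364.

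**Figure D4:**
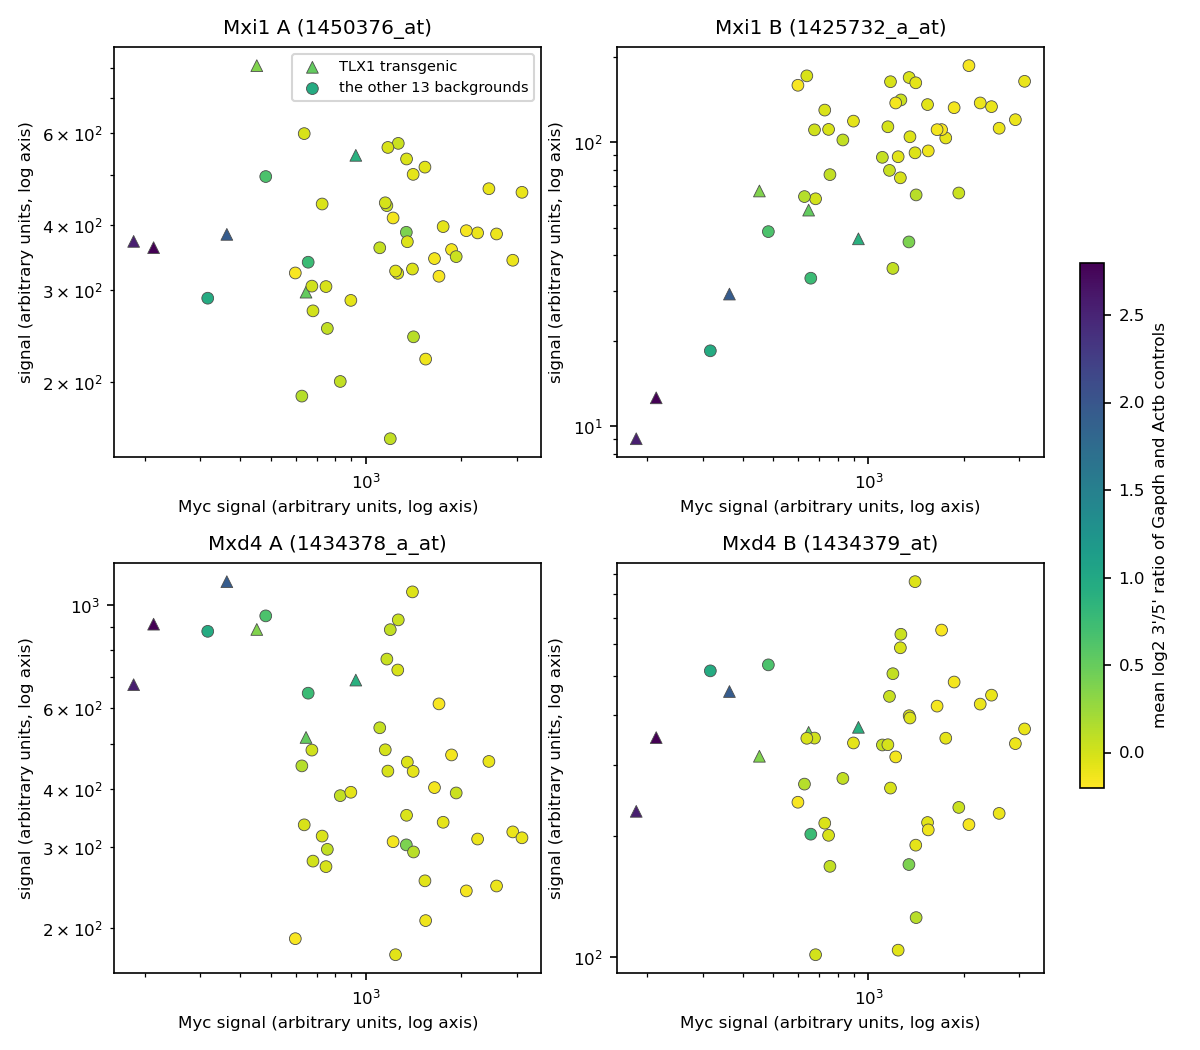
Signal of 2 Mxi1 and 2 Mxd4 probe sets against Myc signal in 47 tumours (arbitrary units, log axes); triangles are TLX1 transgenic tumours, circles the other 13 backgrounds, and colour is the mean log2 3'/5' ratio of the Gapdh and Actb controls. The 3 tumours of highest ratio have Myc at 185 to 364, Mxi1 B at 9.02 to 29.2 and Mxd4 A at 673 to 1126.

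Of 8 further network genes, 5 could be tested: Mxd3 and Mnt, which bind MAX and repress, Mga, a large MAX partner, and Mlx and Mlxip, which form a parallel pair. Mxd1 and Mlxipl had 0 of 47 arrays above the median, as Mycl did. Mnt and Mlxip rose in TLX1 positive tumours, where 12.6% of all genes were called higher. They did so by 0.85 ± 0.17 (limma, adjusted p = 0.00027) and 0.49 ± 0.18 (adjusted p = 0.038), and neither passed with the 3'/5' covariate (0.0681% of genes called). Mxd3 (0.65 ± 0.26, adjusted p = 0.0649), Mga (-0.48 ± 0.28, adjusted p = 0.219) and Mlx (-0.22 ± 0.15, adjusted p = 0.295) missed the threshold. The median of the 5 was 0.49, against 0.07 for all genes. Mnt, Mga and Mlxip, 3 of the 5, differed among backgrounds, where 68.1% of all genes did. None of the 5 was called in Cdkn2a knockout tumours or on the slope with Myc, where Mga had the steepest value (0.33 ± 0.14, adjusted p = 0.221).

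Among 16 tested cofactors and regulators of 19 listed, Zbtb17, which encodes the MYC partner MIZ1, rose by 0.56 ± 0.17 in TLX1 positive tumours (limma, adjusted p = 0.0125). Huwe1, a ubiquitin ligase for MYC, fell by 0.30 (SE 0.11, adjusted p = 0.0362). These were the only 2 of the 16 called there, where 21.4% of all genes were called. Neither passed with the 3'/5' covariate (0.0681% of genes called). In Cdkn2a knockout tumours 2 of the 16 were lower and 1 higher, where 14.6% of all genes were called lower and 16.1% higher. Sin3b, a corepressor used by MXD proteins, had -0.45 ± 0.14 (limma, adjusted p = 0.0123), Zbtb17 -0.35 ± 0.13 (adjusted p = 0.0318) and Fbxw7, the ubiquitin ligase subunit that turns over MYC and NOTCH1, 0.34 ± 0.11 (adjusted p = 0.0167).

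Of 24 known MYC targets tested among 26 listed, 3 rose in Cdkn2a knockout tumours, the background of highest Myc, where 16.1% of all genes were called higher. These were Polr1b, an RNA polymerase I subunit (0.75 ± 0.17, limma, adjusted p = 0.00102), Shmt2, of mitochondrial one-carbon metabolism (0.62 ± 0.16, adjusted p = 0.00312), and Eif4a1, a translation factor (0.48 ± 0.15, adjusted p = 0.0114). The list had a median of 0.17, against 0.02 for all genes, and 0 of 24 fell, where 14.6% of all genes were called lower. In TLX1 positive tumours 7 of the 24 fell and 0 rose, where 8.86% of all genes were called lower and 12.6% higher, with a list median of -0.31 against 0.07 for all genes. They were Nme1, Eif4a1, Eif4e, Polr1b, Rrs1, Cad and Npm1, from -1.71 ± 0.29 for Nme1, a nucleoside diphosphate kinase, to -0.51 ± 0.17 for Npm1, a nucleolar protein. None of these 7 passed with the 3'/5' covariate, where only 0.0681% of all genes were called. Without TLX1 transgenic tumours 2, 5 and 6, 0 passed (share of all genes not given here). The count was 4 without TLX1 transgenic 4 and also 4 without TLX1 transgenic 2, whose 8 myeloid markers summed to 52528, against 953 to 9375 in the other 46 tumours.

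In p53 knockout tumours 7 of the 24 targets fell (9.34% of genes called lower). Without p53 knockout 2, 0 of 24 fell, where only 2.67% of all genes were called lower. The list median was -0.30 with that tumour and -0.13 without it. Ikaros Plastic tumours, whose Myc was not called, had 5 lower targets (7.85% of genes called lower), among them Cdk4 (-0.77 ± 0.17, limma, adjusted p = 0.00166). Tal1-LMO2 tumours had 4 higher ones (1.44% of genes called higher), among them Cdk4 again (0.68 ± 0.17, adjusted p = 0.0106). On the slope within backgrounds Polr1b alone was called, at 0.55 ± 0.12 log2 units per log2 unit of Myc (limma, adjusted p = 0.019; 0.908% of genes called higher), and it did not pass with the 3'/5' covariate (adjusted p = 0.101). The list's median slope was 0.22, against 0.02 for all genes.

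Genes of the Notch pathway, a known input to Myc, fell in the 2 backgrounds of highest mean Myc. Notch1 and Notch3 (receptors), Hes1, Dtx1 and Nrarp (targets) and Ptcra (the pre-T cell receptor chain, a NOTCH target) fell in Cdkn2a knockout tumours, 6 of 6, where 14.6% of all genes were called lower. Their median difference was -2.55, against 0.02 for all genes. Notch1 ran from 42.0 to 1537 with a median of 122 in Cdkn2a knockout tumours, against 54.3 to 6484 with a median of 2301 in the other 38 tumours, and 26 of those 38 exceeded the highest of the 9. Its log2 difference was -3.44 ± 0.40 (limma, adjusted p = 7.32e-08). Hes1 had a median of 38.4 in Cdkn2a knockout tumours, against 226 in the others (-1.71 ± 0.27, adjusted p = 1.36e-05). In beta-catenin transgenic tumours 5 of the 6 fell (7.42% of genes called lower), with Notch1 at 54.3 to 124 (-4.09 ± 0.65, adjusted p = 2.34e-05), and Nrarp missed it (-1.25 ± 0.56, adjusted p = 0.113). In TLX1 positive tumours and on the slope with Myc within backgrounds 0 of 6 were called. The 5 T cell markers summed to 5486 to 12069 with a median of 7383 in Cdkn2a knockout tumours. These sums overlapped those of beta-catenin transgenic (10603 to 12838) and Ikaros Plastic tumours (7910 to 12929). The highest sum of the series, 29817, was in an E2A knockout tumour. The part of these sums in the Notch values was not tested.

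**Figure D5:**
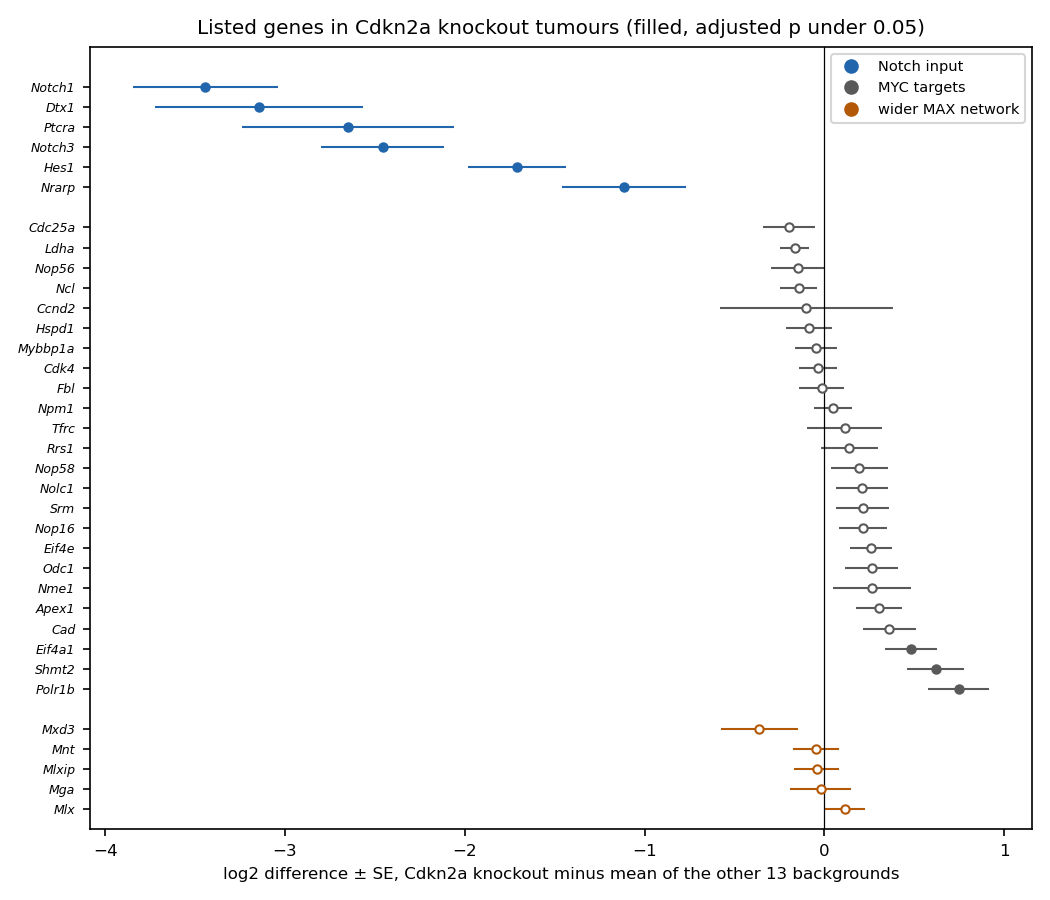
Log2 difference ± SE in Cdkn2a knockout tumours from the mean of the other 13 backgrounds for the tested genes of 3 lists; filled points passed an adjusted p under 0.05. The 6 Notch input genes lie between -3.44 and -1.11, 3 of 24 MYC targets are filled on the higher side, and 0 of 5 genes of the wider MAX network are filled.

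The nearest tested genes to Myc on its chromosome were Trib1 and Nsmce2 on one side and Pvt1 and Cyrib on the other, in the gene order of GRCm38.p6. Trib1, a pseudokinase gene, rose in Cdkn2a knockout tumours by 1.21 ± 0.35 (limma, adjusted p = 0.00842), with 21.1 to 383 and a median of 290, against 2.98 to 486 and a median of 85.3 in the other 38. Pvt1, a long noncoding RNA gene and known insertion site of leukaemia viruses, rose by 0.93 ± 0.32 (adjusted p = 0.0249). By this probe set its highest signal was 524 in Cdkn2a knockout 6, against at most 291 in the other backgrounds. Other Pvt1 probe sets were highest in other tumours, at 378 in Cdkn2a knockout 4 and 96.8 in Cdkn2a knockout 8. Nsmce2 (0.20 ± 0.15, adjusted p = 0.346) and Cyrib (0.01 ± 0.14, adjusted p = 0.954) were not called. Of the neighbours of Mycn, Smc6 (0.32 ± 0.12, adjusted p = 0.0349) and Lratd1 (0.75 ± 0.25, adjusted p = 0.0229) were higher in Cdkn2a knockout tumours. Lratd1 had a median of 35.4 there, under the lowest array median. Ddx1 fell (-0.31 ± 0.11, adjusted p = 0.0307) and Rdh14 did not pass (-0.18 ± 0.11, adjusted p = 0.197). In Cdkn2a knockout tumours 16.1% of all genes were called higher and 14.6% lower. None of these 8 neighbours of Myc and Mycn was called on the slope with Myc within backgrounds.

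The genes whose log2 values were most like those of Myc over the 47 tumours were Gspt1 (Pearson r = 0.84), Tbp (0.84), Trmt5 (0.83), Zfp239 (0.82) and Nup153 (0.82), and those most opposed were Ccdc12 (-0.83), Rnf181 (-0.79) and Epn1 (-0.78). The first 5 had r of -0.61 to -0.81 with the 3'/5' ratio over the same tumours, and the 3 opposed genes 0.52 to 0.71. For Mycn (probe set B, where the slope above used A) the most alike were Rhbdf1 (0.71), Itga3 (0.71), Adgrl4 (0.69), Cldn5 (0.69) and She (0.69). The most opposed were Myb (-0.66), Sh2d1a (-0.64) and Satb1 (-0.64). Probe set B was above the array median in 0 of 47 arrays, with a median signal of 7.83, so these values describe a dim signal. Adgrl4, Cldn5 and She are genes of endothelial cells, Myb and Satb1 of immature T cells, and the tumour with the least T cell and most endothelial marker signal, p53 knockout 2, is among these 47. Genes are given here by likeness over tumours that share backgrounds and RNA quality, as a description.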

How the data were processed

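Total RNA of 47 mouse T-cell lymphoblastic tumours was measured on Affymetrix arrays. The authors deposited 1 signal value per probe set and array, computed by MAS5, per the submitters' processing notes; its version is not given in the sources used here. The deposited signals ran from 0.0296 to 22734, and the mean after cutting 2% from each end was 250.1 on every array, so they had been scaled; the number of arrays limits the precision. Of 22690 probe sets, 64 are controls, 20380 have 1 gene symbol in the platform annotation, 691 several and 1555 none, and no gene was named from a probe set with several. From the signals, log2(signal + 15.9) was computed, the added value being the 25th percentile of all signals, so that folds of low genes are understated. Probe sets above the array median on at least 2 arrays were kept, and a gene was represented by its probe set of highest mean, which left 8810 genes.

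Backgrounds came from the titles. Linear models with limma 3.58.1 in R 4.3.3 (lmFit, eBayes with trend, Benjamini-Hochberg over all genes) tested differences among the 14 backgrounds, TLX1 positive against negative tumours, each background against the unweighted mean of the other 13, and the slope on Myc with background terms. The script was tested on simulated data. Title numbers did not pair tumours: the median correlation of deviations was -0.003 over 230 same-numbered pairs and 0.004 over 772 others. The planned tests of Mycn were run only without the filter, which Mycn did not pass, and the slope on Mycn was not run.

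The members and gene lists were chosen with earlier results of these data known. The text names all members, the wider MAX network, up to 6 genes of lowest p of each other list called in the slope or the TLX1 contrast, the 5 most and 3 least correlated genes, and 2 tested neighbours on each side of Myc and Mycn; other list genes, such as those given for single backgrounds, the seventh TLX1 target Npm1 and Lmo1, were chosen after their values were seen. Alternatives changed the pseudocount, filter, probe set, normalization, weights, trend, replicate block, 3'/5' covariate and tumours. The gene deleted in the p53 knockout tumours is not analysed here. Promoter windows are RefSeq's, of GRCm38.p6.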

Additional observations from a re-analysis of the deposited data

Results flagged for a closer look

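In 7 tested probe sets of the members and the 2 groups of more than 3 tumours, which make 14 comparisons, 1 tumour stood apart from its group by Dixon's test on log2(signal + 15.9). Mxi1 (probe set A) had a signal of 221 in Cdkn2a knockout 8, where the next lowest of the 9 Cdkn2a knockout tumours had 342 and the highest 470. On the log2 scale the gap was 0.576 of the group's range, above the critical value for 9 values. On the signals themselves it was 0.488, below that value. Chance flags about 1 in 20 groups.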

How the results depend on the processing

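The differences of Myc and Max among backgrounds and the Myc difference in Cdkn2a knockout tumours passed under each of 13 alternatives. For Mxi1 among backgrounds, the limma adjusted p was 0.00098 with the probe set of largest interquartile range, which is B, and 0.036 without tumours of a 3'/5' ratio above 0.5, against 0.359; with that probe set the TLX1 difference of Mxi1 was -1.26. For Mxd4 among backgrounds it was 0.139 with the 3'/5' covariate and 0.120 without those tumours. The TLX1 difference of Myc lost its call with the covariate (-0.026), background as a random block (-1.41), without tumours of high ratio (-1.48, where TLX1 transgenic 4 is the only TLX1 positive tumour left) and without TLX1 transgenic 2, 5 and 6 (-0.86, chosen after seeing the data, as were all alternatives that leave out these tumours or use all probe sets). That of Mxd4 did so under the same settings (0.23, 0.84, 1.16 and 0.71), the third again resting on that 1 tumour. MYC targets lower in TLX1 positive tumours numbered 7, against 0 with the covariate, 0 with the random block and 0 without TLX1 transgenic 2, 5 and 6. At the probe set level they numbered 15, where any 1 lower probe set counted its gene. There 28.2% of probe sets were called, against 21.4% of genes in the main fit. The count was 4 to 8 when each tumour was left out. The slope of Mxd4 on Myc was -0.33 with no background terms, and -0.061 to 0.11 when each tumour was left out, near 0 throughout; the cause was not tested. Over all genes, 1889 were called for TLX1, 6 with the covariate and 107 without tumours of high ratio, and 3957 probe sets; 100 were called on the slope, 0 with the covariate, 0 without tumours of high ratio, 49 with no filter, 274 probe sets and 2752 with no background terms. With the title number as a replicate block, 11 member differences were called in place of 12, the one lost being Mxd4 in Cdkn2a knockout tumours (-0.50, adjusted p = 0.201), and it changed no other member call; the numbers share no source in the labels. Myc in p53 knockout tumours was -0.34 without tumours of high ratio (adjusted p = 0.710), where p53 knockout 3 is the only tumour of that background left. A lone tumour is assumed to vary like the other groups.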
